A study of Mus musculus with 19 samples.

Results

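The 4 Argonaute genes (Ago1, Ago2, Ago3 and Ago4) and the 3 Tnrc6 genes (Tnrc6a, Tnrc6b and Tnrc6c) encode the core of the microRNA silencing complex. They were taken from the expression table by gene symbol and not by their values, although earlier results of these data were known when they were chosen. All 7 were present among the 21685 genes of the table, and all 7 passed the filter on low values that left 14988 genes for testing. The lowest of them, Ago4, reached the limit of 10 normalised units in all 18 libraries.

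mRNA was sequenced from male C57BL/6 mouse embryonic stem cells (mESCs), grown with fetal calf serum and leukaemia inhibitory factor and enriched for the surface antigen SSEA-1 on magnetic columns before harvest. The genotypes are written with Trim71 first. WT-WT cells were Trimfl/fl - Lin28afl/fl (n = 4), and KO-WT cells were Trim-/- - Lin28afl/fl (n = 4). WT-KO cells were Trimfl/fl - Lin28a-/- (n = 5), and KO-KO cells were Trim-/- - Lin28a-/- (n = 5). Trim71 mutation was induced in conditional cells with 500 nM 4-OHT (4-hydroxytamoxifen) for 2 days, and harvest followed at least 7 days after that; how Lin28a was deleted, and whether WT cells met the drug, is not given in the sources used here. Libraries of a genotype came from different harvest days and from a pair of clones, so p-values measure the spread between these libraries. Lin28a-intact libraries came from clones 1 and E3 and Lin28a-null libraries from clones 1-4 and C1, so that Lin28a genotype and clone cannot be told apart.

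Argonaute proteins hold a mature microRNA and use its seed, near the 5′ end, to find target mRNAs. AGO2 is the only mammalian Argonaute with well established slicing activity, and the other family members silence through partner proteins. TNRC6 proteins (GW182 proteins) bind Argonaute through tryptophan repeats and recruit the CCR4-NOT and PAN2-PAN3 deadenylases, which start the decay of the target. In mESCs the AAGUGCU-seed microRNAs of the miR-290 and miR-302 clusters are abundant, while LIN28A blocks maturation of let-7, and TRIM71 is an RNA-binding ubiquitin ligase that is itself a let-7 target.

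Values are log2 normalised expression as the authors deposited it, with differences between harvest days already removed, and fold sizes apply to that scale. Sequencing depth is not known from these values. The 2 targeted transcripts set the genotypes apart. Trim71 lay between 10.04 and 11.00 in the Trim71-intact libraries and between 8.77 and 9.55 in the null ones. Lin28a lay between 9.74 and 10.26 in the intact libraries and between 8.21 and 8.57 in the null ones. The summed level of 6 embryonic stem cell markers was 18504 to 20063 normalised units with Lin28a and 24730 to 27596 without it. That of 8 trophectoderm markers was 4449 to 5922 with Lin28a and 975 to 1328 without it, and that of 7 primitive endoderm markers was 262 to 475 against 80.6 to 130. All 6 of the matched fibroblast markers together gave 317 to 371 units with Lin28a and 355 to 439 without it, and 6 neural markers gave 640 to 826 against 730.1 to 960.2. Of the markers tested, Lin28a loss called 1 fibroblast gene higher and 2 lower in either Trim71 state, and 2 neural genes higher with 2 lower (Trim71 intact) or 1 lower (Trim71-null). It called 4 of 6 trophectoderm genes lower in either state, and 5 of 5 (Trim71 intact) or 4 of 5 (Trim71-null) primitive endoderm genes. Stem cell genes were called higher, in the same order, at 5 of 6 and 3 of 6. Of all genes, 20.3% and 20.8% were called higher and 22.0% lower in each. Krt8 averaged 10.96 in WT-WT and 6.74 in WT-KO, whereas Eomes (5.30 and 5.43) and Tfap2c (9.69 and 9.82) were not lower. The stem cell, trophectoderm and primitive endoderm sums separated the Lin28a states without overlap, as several of the genes below did, whereas the fibroblast and neural sums overlapped. The neural sum was lower without Trim71 in either Lin28a state, at 640 to 676 against 745 to 826 with Lin28a and 730.1 to 770.6 against 822 to 960.2 without it. Tubb3 and Neurod1 were lower on average in both states, whereas Sox1 went from 5.15 (WT-WT) to 5.30 (KO-WT) and from 5.23 (WT-KO) to 5.41 (KO-KO). Trim71 loss called none of 5 neural genes with Lin28a, beside 11.2% of all genes in either direction. Without Lin28a it called 1 lower, beside 4.12% of all genes called lower. The part of these sums in the results was not tested. In such bulk libraries, fewer cells of a type and less RNA per cell cannot be told apart.

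The microRNAs whose pathway the study perturbs are shown first, since Argonaute proteins carry them and the transcripts of some of the 7 genes hold letters that match their seeds. Mature sequences are from RefSeq (GRCm38.p6), with the seed (bases 2 to 8) in capitals. The 2 let-7 forms share 1 seed, and the 3 stem cell microRNAs share another.
let-7a-5p: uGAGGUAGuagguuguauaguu
let-7g-5p: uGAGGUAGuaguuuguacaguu
miR-294-3p: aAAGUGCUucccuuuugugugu
miR-295-3p: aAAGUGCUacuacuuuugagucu
miR-302b-3p: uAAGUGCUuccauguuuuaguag

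The 3′ untranslated region of each gene's longest coding transcript (GENCODE, GRCm38) was searched, on the transcript strand, for the letters CTACCTC, the complement of the let-7 seed. Of the 7 genes, Ago2 held 3 matches and Ago3 held 1, and the other 5 held none in the window searched. Such a match was present in 10.6% of 12581 tested genes, and these genes have long untranslated regions, of 11064 bases in Ago2. The 4 matches are given with the matched letters in capitals. An A follows the last Ago2 match and the Ago3 match, and the first Ago2 match is the only Ago2 match that lies inside the gene as RefSeq draws it.
Ago2 chr15:73101724-73101746 (- strand): acagatgcataaaagCTACCTCt
Ago2 chr15:73100040-73100062 (- strand): caggtggcctctgtcCTACCTCc
Ago2 chr15:73097982-73098004 (- strand): ttttacaatgtggatCTACCTCa
Ago3 chr4:126335040-126335062 (- strand): ggcacctgccctcacCTACCTCa

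Letters AGCACTT, the complement of the stem cell seed, were present in 17.3% of the same genes. Here Ago3 held 3 matches, Tnrc6b held 2 and Tnrc6c held 1. MicroRNA levels were not part of the table, and a match is a description of the letters only.
Tnrc6b chr15:80931313-80931335 (+ strand): tgcggggaacatgctAGCACTTg
Tnrc6b chr15:80935703-80935725 (+ strand): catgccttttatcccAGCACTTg
Tnrc6c chr11:117762119-117762141 (+ strand): gcgggcggccggccgAGCACTTg
Ago3 chr4:126341691-126341713 (- strand): gtcacaggcggtgtgAGCACTTg
Ago3 chr4:126338311-126338333 (- strand): caggactttaattgcAGCACTTa
Ago3 chr4:126335515-126335537 (- strand): tgctcaaatgttaagAGCACTTa

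The levels of the genes can be compared with each other only after division by transcript length, here that of the longest coding transcript; which transcript the cells used was not measured. Over all 18 libraries Ago2 stood at 144 ± 18.1 normalised units per kb (SD) and Ago1 at 113 ± 6.55. Ago3 stood at 14.0 ± 1.85 and Ago4 at 2.06 ± 0.189 units per kb. Ago2 was above Ago1 in 18 of 18 libraries, with a ratio of 1.08 to 1.47, although their ranges over libraries overlapped; the ranges of Ago1, Ago3 and Ago4 did not overlap. Of the scaffold genes, Tnrc6a stood at 127 ± 11.6, Tnrc6c at 104 ± 11.3 and Tnrc6b at 34.4 ± 5.09 units per kb. Tnrc6a was above Tnrc6c in 17 of 18 libraries with overlapping ranges, and Tnrc6c was above Tnrc6b in all 18 with none.

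Ago2, which encodes the slicing Argonaute, was higher in every Lin28a-null library than in every Lin28a-intact library. Its log2 values were 10.71, 10.82, 10.87 and 10.81 in WT-WT and 10.54, 10.75, 10.85 and 10.83 in KO-WT. They were 11.03, 11.13, 11.12, 10.97 and 10.98 in WT-KO and 11.22, 11.23, 11.01, 11.00 and 11.08 in KO-KO. KO-WT replicate 1 lay lowest, and the nearest libraries of the 2 states stood at 10.87 and 10.97. Within each Trim71 state, every Lin28a-null library was above every intact one for 20.1% (Trim71 intact) and 19.8% (Trim71-null) of all genes. Over both Trim71 states together this share was not counted. Loss of Lin28a raised Ago2 by 0.25 ± 0.0710 (SE) log2 units with Trim71 intact (1.19-fold, limma adjusted p = 0.0106). Without Trim71 the rise was 0.37 ± 0.0710 (1.29-fold, adjusted p = 0.000590). Trim71 loss gave Ago2 differences of -0.06 with Lin28a (95% interval -0.22 to 0.10) and 0.06 without it (-0.08 to 0.20). Neither passed the test. The call with Trim71 intact was lost in 2 of 28 alternative analyses, in clones E3 and C1 alone and without WT-WT replicate 1, with values from 0.19 to 0.28 and adjusted p up to 0.176.

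Ago1, a neighbour of Ago3 and Ago4 on chromosome 4, was also higher without Lin28a, over a smaller range. Its values were 9.58, 9.66, 9.60 and 9.63 in WT-WT and 9.49, 9.59, 9.60 and 9.61 in KO-WT. They were 9.75, 9.79, 9.75, 9.76 and 9.77 in WT-KO and 9.76, 9.75, 9.65, 9.69 and 9.65 in KO-KO. WT-KO and WT-WT did not overlap, nor did KO-KO and KO-WT, but the lowest KO-KO libraries reached the level of the highest WT-WT library. Lin28a loss raised Ago1 by 0.15 ± 0.0417 with Trim71 (adjusted p = 0.0101) and by 0.13 ± 0.0417 without it (adjusted p = 0.0216). The second of these calls was lost in 7 of 28 alternative analyses, which gave 0.02 to 0.15 with adjusted p up to 0.731. The lowest value came with correction for GC content and transcript length, and among libraries left out the call was lost without KO-WT replicate 1 (0.09) and without KO-KO replicate 2 (0.11).

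Ago3, whose mRNA is the richest of the 7 in A and T (41.8% GC), had its lowest values in KO-WT. They were 7.52, 7.65, 7.36 and 7.69 there, against 7.70, 7.75, 8.08 and 7.85 in WT-WT. WT-KO libraries held 7.78, 7.68, 7.66, 7.99 and 7.62, and KO-KO libraries 7.99, 7.98, 7.97, 7.60 and 7.86. All 4 KO-WT libraries were below all 4 WT-WT libraries, as they were for 15.3% of all tested genes, while the Lin28a-null genotypes overlapped with WT-WT. The difference between KO-WT and WT-WT was -0.29 ± 0.117 (limma adjusted p = 0.112) and did not pass the test. The difference between KO-KO and KO-WT was 0.33 ± 0.108 and passed it (adjusted p = 0.0223). Both shrank after the correction for GC content and length, to -0.05 and 0.12, and the second was then not called (adjusted p = 0.134). That call was lost in 8 of 28 alternative analyses, with values from 0.12 to 0.43 and adjusted p up to 0.237, among them those without KO-WT replicate 1 (0.31), KO-WT replicate 3 (0.24), KO-KO replicate 2 (0.28) or KO-KO replicate 3 (0.30).

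Ago4 was the weakest of the family and the only Argonaute gene with a negative difference in all 5 comparisons. It spanned 3.75 to 3.98 in WT-WT, 3.69 to 3.86 in KO-WT, 3.52 to 3.91 in WT-KO and 3.50 to 3.87 in KO-KO. The genotypes overlapped throughout. Differences ran from -0.04 for Trim71 loss without Lin28a to -0.19 ± 0.0944 for loss of both genes (adjusted p = 0.114), and none was called.

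**Figure D1:**
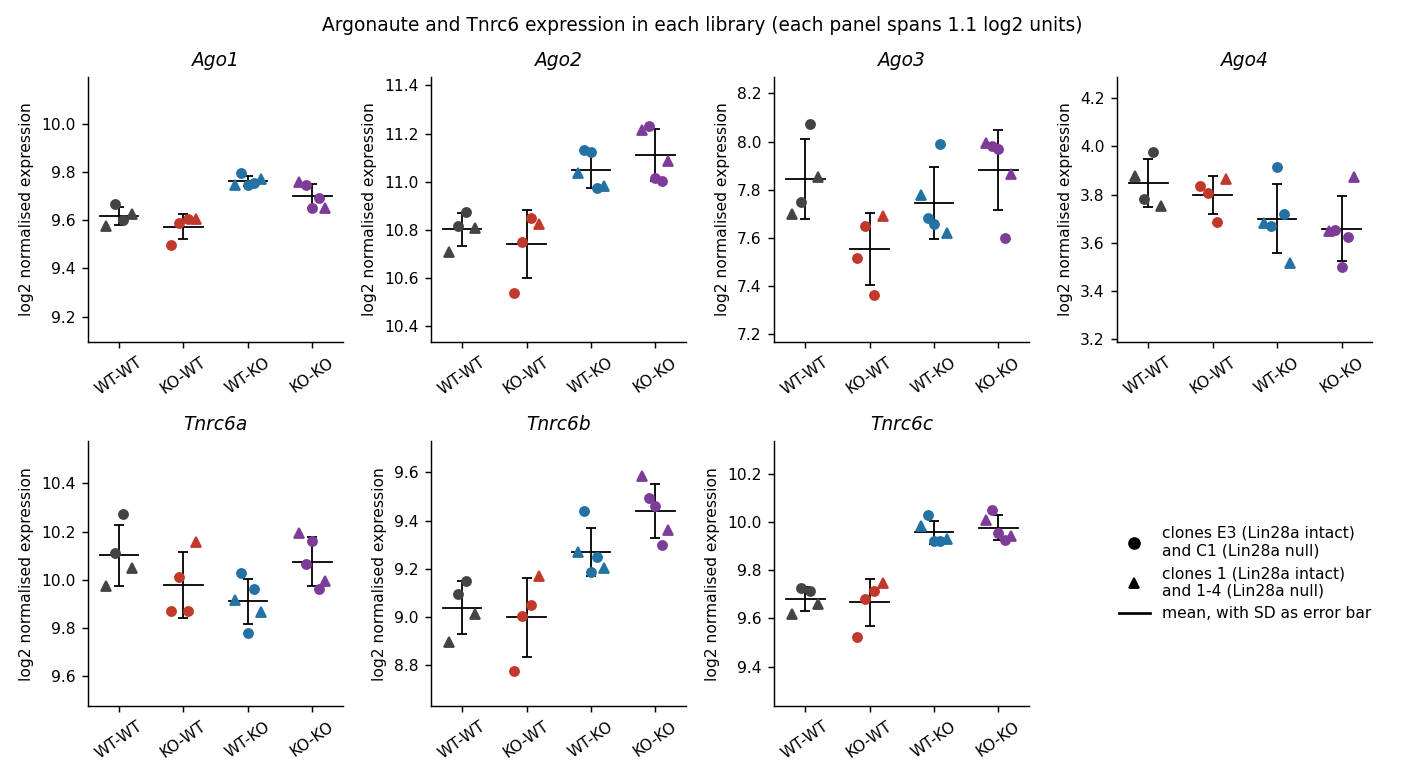
Log2 normalised expression of the 7 genes (vertical axis, each panel spanning the same number of log2 units) in the 18 libraries by genotype; circles are clones E3 and C1, triangles clones 1 and 1-4, and lines mark the mean with SD. Ago2, Tnrc6b and Tnrc6c separate the Lin28a states with no overlap, from 10.87 to 10.97 for Ago2, while Ago4 and Tnrc6a overlap in every pair of genotypes.

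Tnrc6c, the scaffold gene with the smallest spread within each genotype, separated the Lin28a states as cleanly as Ago2. Its values were 9.62, 9.72, 9.72 and 9.66 in WT-WT and 9.52, 9.68, 9.71 and 9.75 in KO-WT. They were 9.98, 10.03, 9.92, 9.92 and 9.93 in WT-KO and 10.01, 10.05, 9.95, 9.93 and 9.94 in KO-KO. Every Lin28a-null library was above every Lin28a-intact one, a separation not counted over all genes. Lin28a loss raised Tnrc6c by 0.28 ± 0.0513 with Trim71 intact (1.21-fold, adjusted p = 0.000437) and by 0.31 ± 0.0513 without Trim71 (1.24-fold, adjusted p = 0.000170). Trim71 loss gave -0.01 (95% interval -0.13 to 0.10) and 0.02 (-0.08 to 0.12), the tightest intervals among the scaffold genes.

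Tnrc6b had the largest single difference of the 7 genes. Its values were 8.90, 9.10, 9.15 and 9.01 in WT-WT and 8.78, 9.00, 9.05 and 9.17 in KO-WT. They were 9.27, 9.44, 9.19, 9.25 and 9.20 in WT-KO and 9.58, 9.49, 9.46, 9.30 and 9.36 in KO-KO. All Lin28a-null libraries lay above all intact ones, the nearest at 9.17 and 9.19, and the highest values were in KO-KO. This separation too was not counted over all genes. Lin28a loss raised Tnrc6b by 0.23 ± 0.0842 with Trim71 (1.17-fold, adjusted p = 0.0367) and by 0.44 ± 0.0842 without it (1.36-fold, adjusted p = 0.000579). The former call was lost in 7 of 28 alternative analyses, with values from 0.13 to 0.28 and adjusted p up to 0.352. Left-out libraries that ended it were WT-WT replicates 1 (0.16) and 4 (0.22) and WT-KO replicates 1 (0.23), 2 (0.19) and 4 (0.24). Trim71 loss without Lin28a left Tnrc6b 0.17 ± 0.0779 higher, in 5 of 5 same-day pairs, and did not pass the test (adjusted p = 0.204 in limma).

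Tnrc6a, the most abundant scaffold transcript per length, did not rise with the other Tnrc6 genes. Its values were 9.98, 10.11, 10.27 and 10.05 in WT-WT and 9.87, 10.01, 9.87 and 10.16 in KO-WT. They were 9.92, 10.03, 9.78, 9.96 and 9.87 in WT-KO and 10.20, 10.07, 10.16, 9.96 and 9.99 in KO-KO. The 4 genotypes overlapped. With Trim71 intact, Lin28a loss gave -0.19 ± 0.0785 (adjusted p = 0.0608), lower in 4 of 4 same-day pairs, and without Trim71 it gave 0.10 ± 0.0785 (adjusted p = 0.335). The first value passed the test under several alternatives, among them the correction for GC content and length (-0.18, adjusted p = 0.0186).

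The makeup of the scaffold family is described next, with no test. The log2 ratio of Tnrc6c to Tnrc6a, taken from values not divided by length, does not depend on library scaling. It was -0.42 ± 0.0898 (SD) over the 4 WT-WT libraries and -0.31 ± 0.108 over the 4 KO-WT libraries. The 5 WT-KO libraries averaged 0.05 ± 0.0699 and the 5 KO-KO libraries -0.10 ± 0.0897. WT-KO lay above both Lin28a-intact genotypes with no overlap, whereas KO-KO, from -0.21 to -0.02, overlapped with KO-WT, from -0.41 to -0.16. The log2 ratio of Tnrc6b to Tnrc6a ran from -1.12 to -0.82 in the Lin28a-intact libraries and from -0.72 to -0.58 in the null ones. Per kb, Tnrc6a made up 52.2% ± 1.32 of the family in WT-WT and 44.3% ± 1.04 in WT-KO, and Tnrc6c 36.0% ± 1.33 and 42.3% ± 1.09.

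Among the Argonaute genes the makeup moved less. Per kb, Ago2 made up 50.7% ± 0.685 in WT-WT, 50.9% ± 1.72 in KO-WT, 53.0% ± 1.36 in WT-KO and 54.8% ± 1.07 in KO-KO. Ago1 made up 42.6% ± 1.23 in WT-WT and 39.4% ± 1.22 in KO-KO, and Ago4 stayed under 1% in every library. The summed Argonaute level per kb was 0.991 ± 0.0352 times the summed Tnrc6 level in WT-WT and 1.09 ± 0.0515 times in WT-KO. In KO-WT and KO-KO it was 0.996 ± 0.0466 and 1.02 ± 0.0429 times, and the ranges of KO-WT, WT-KO and KO-KO overlapped. WT-WT, from 0.944 to 1.02, and WT-KO, from 1.05, did not.

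**Figure D2:**
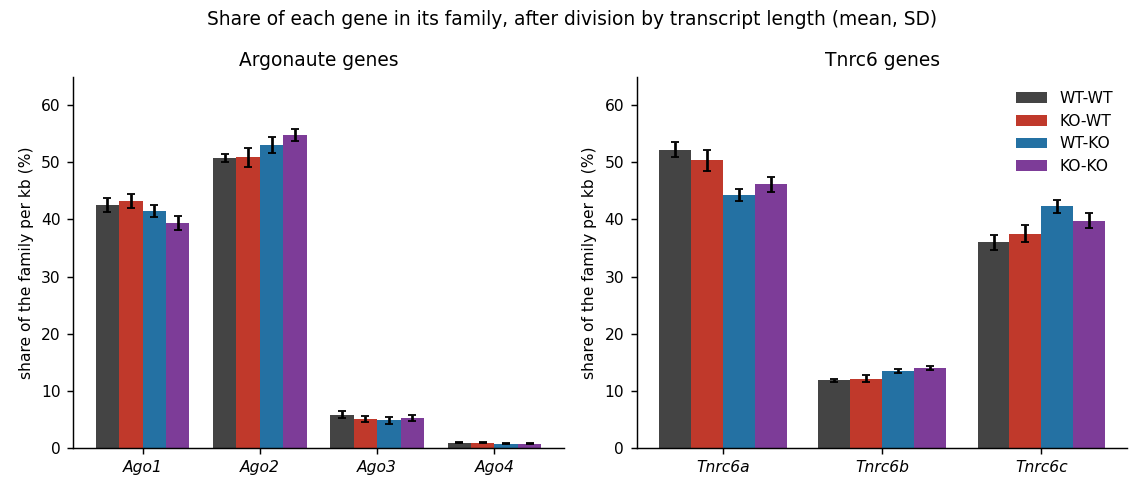
Share of each gene in the summed per-kb level of its family (vertical axis, percent; bars are means over libraries, error bars SD, colours genotypes). The share of Tnrc6a falls from 52.2% in WT-WT to 44.3% in WT-KO as that of Tnrc6c goes from 36.0% to 42.3%, while Ago2 goes from 50.7% in WT-WT to 54.8% in KO-KO.

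Loss of Lin28a with Trim71 intact raised 4 of the 7 genes (Ago1, Ago2, Tnrc6b and Tnrc6c) and lowered none. Of all 14988 genes, 42.4% were called in that comparison, 20.3% higher and 22.0% lower. Which direction held more genes turned with the scaling: with a trimmed mean of each library as the reference, 3662 were called higher and 2764 lower, against 3049 and 3302, and 4 of the 7 were called in either case. The same 4 genes had every WT-KO library above every WT-WT library, as 20.1% of all genes did, and 40.8% of all genes had no overlap in either direction. The median difference of the 7 was 0.15, against -0.01 for all genes. Tnrc6c, the largest, stood at the 74.3 percentile of absolute differences over all genes.

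In Trim71-null cells, loss of Lin28a raised 5 of the 7 genes, the same 4 and Ago3, with 42.8% of all genes called, 20.8% higher and 22.0% lower. Every KO-KO library was above every KO-WT library for 4 of the 7 (Ago3 overlapped), as for 19.8% of all genes, while 40.7% of all genes had no overlap in either direction. The 7 transcripts are long, from 6.54 kb for Ago4 to 17.33 kb for Tnrc6b, and in this comparison differences moved with length (rank correlation 0.250 across 14806 genes, which are not independent replicates). Among the 1413 tested genes with a transcript at least as long as that of Ago4, 40.2% were called higher, against 18.7% of the shorter ones. In the comparison with Trim71 intact, the corresponding shares were 25.2% and 19.9%, and differences moved with GC content (rank correlation 0.247). The 4 calls made there were kept after the correction for GC content and length. After the correction for GC content and length, the rises in Trim71-null cells were 0.19 for Ago2 (adjusted p = 0.00408), 0.25 for Tnrc6b (0.00100) and 0.17 for Tnrc6c (0.00144), each still called but smaller by more than 1.5 times, and 3 of the 7 genes remained called. Without KO-WT replicate 1, which had the lowest Ago1, Ago2, Tnrc6b and Tnrc6c of its genotype, 3 were called as well, and without KO-KO replicate 2 also 3.

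Loss of both genes left 3 of the 7 higher than in WT-WT, with 45.6% of all genes called, 21.0% higher and 24.6% lower. These were Ago2 (0.31 ± 0.0710, adjusted p = 0.00233), Tnrc6b (0.40 ± 0.0842, adjusted p = 0.00118) and Tnrc6c (0.30 ± 0.0513, adjusted p = 0.000236). The 3 had every KO-KO library above every WT-WT library, as 20.8% of all genes did, beside 44.5% with no overlap in either direction. Differences moved with GC content here too (rank correlation 0.241). After the correction for GC content and length, all 3 genes were still called and Tnrc6c was at 0.17, smaller by more than 1.5 times. In the E3 and C1 clones taken alone none of the 3 was called (adjusted p of 0.149, 0.0934 and 0.0567). Without the day term, 5 of the 7 were called, since Ago1 (0.08) came out higher and Ago4 (-0.19) lower. This comparison shares its WT-WT and KO-KO libraries with the comparisons above.

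Trim71 loss called none of the 7 genes in limma, in either Lin28a state, with 11.2% of all genes called with Lin28a intact (4.74% higher and 6.43% lower) and 8.38% without it (4.26% higher and 4.12% lower). Groups did not overlap for 1 of the 7 with Lin28a, Ago3, beside 28.2% of all genes, and for 0 without it, beside 12.6%. At an unadjusted p under 0.05 there was 1 gene with Lin28a (Ago3), beside 29.2% of all genes, and there were 2 without it (Tnrc6a and Tnrc6b), beside 22.8%. With Lin28a intact all 7 differences were below 0, with a median of -0.05 against -0.005 for all genes. In that comparison the differences moved with GC content (rank correlation 0.515 across 14806 genes) and the long transcripts had a median of -0.12. After the correction 4 of the 7 values were above 0, those of Ago2 (0.06), Ago4 (0.03), Tnrc6b (0.13) and Tnrc6c (0.002), so that the shared direction was not kept. Nor was it kept in clones 1 and 1-4 taken alone, which hold 1 KO-WT library. There all but Ago3 (-0.06) were above 0, from 0.01 for Ago1 to 0.24 for Tnrc6b, while in clones E3 and C1 all 7 were below 0. Without Lin28a, 5 of the 7 were above 0, with a median of 0.06 against -0.01.

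No member was called in the interaction, the test of whether the effect of losing Trim71 differs between the Lin28a states, where 0.02% of all genes were called. At an unadjusted p under 0.05 it held 2 of the 7, beside 15.1% of all genes. Ago3 differed by 0.43 ± 0.154 (limma adjusted p = 0.247), going from -0.29 with Lin28a to 0.14 without it. Tnrc6a differed by 0.29 ± 0.112 (limma adjusted p = 0.271), going from -0.12 to 0.16. After the correction for GC content and length these became 0.15 (adjusted p = 0.611) and 0.16 (0.546), and the interaction itself moved with GC content across genes (rank correlation -0.513).

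**Figure D3:**
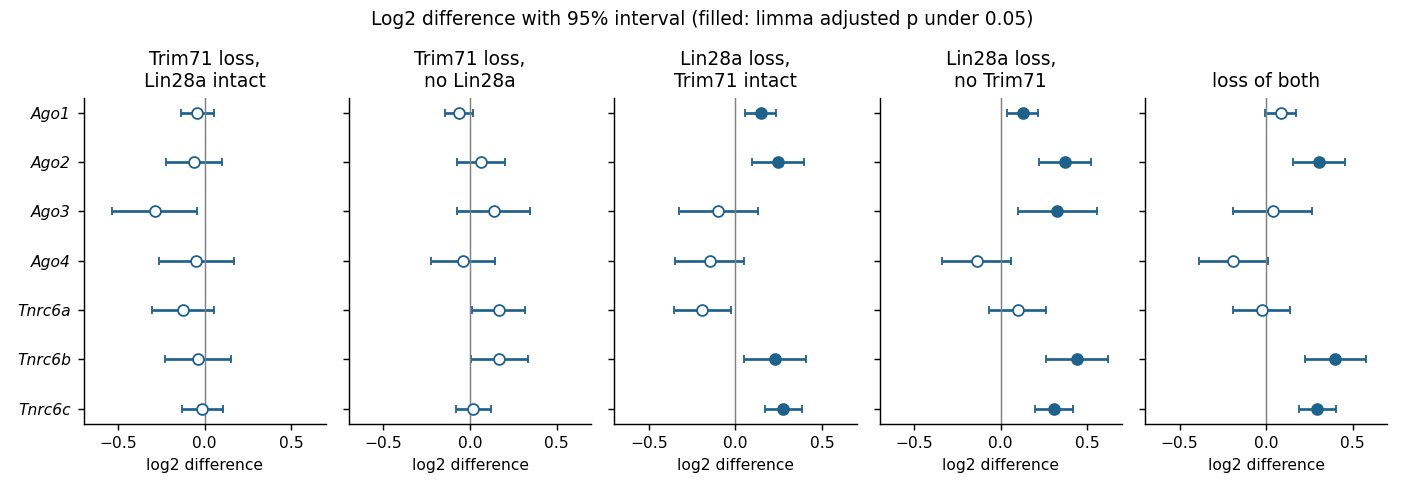
Log2 differences of the 7 genes (horizontal axis) in the 5 comparisons, with 95% intervals from limma; filled points have an adjusted p under 0.05. Filled points appear with loss of Lin28a and with loss of both genes, all to the right of 0, and the largest is Tnrc6b at 0.44 in Trim71-null cells.

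Each Lin28a state was sampled in 2 clones, which allows the comparison to be made in each pair of clones alone. Within a pair each Lin28a state is a single clone, so the spread there is between harvests of that clone. The 2 pairs were harvested on different days, so clone pair and day cannot be told apart. The fits had 5 residual degrees of freedom for E3 and C1 and 2 for 1 and 1-4. In clones E3 and C1 with Trim71 intact, Lin28a loss gave 0.23 ± 0.108 for Ago2, 0.16 ± 0.110 for Tnrc6b and 0.23 ± 0.0830 for Tnrc6c, and none of the 7 was called (adjusted p = 0.176, 0.352 and 0.0800). In clones 1 and 1-4 the same differences were 0.25 ± 0.0561, 0.28 ± 0.0755 and 0.32 ± 0.0497, and all 3 were called (0.0106, 0.0224 and 0.00178). Ago1 was 0.13 and 0.16 higher and was called in neither. The 4 genes were thus above 0 in both pairs of clones, and the difference between the pairs was not tested.

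In Trim71-null cells, Ago2 was called in both pairs of clones, at 0.37 ± 0.0932 in E3 and C1 (adjusted p = 0.0141) and 0.31 ± 0.0724 in 1 and 1-4 (0.0216). Its rise there was kept in 28 of 28 alternative analyses, with values from 0.19 to 0.42. Tnrc6b and Tnrc6c were called in E3 and C1 only, and clones 1 and 1-4 hold 1 KO-WT library, so that their spread is taken from the other genotypes. Trim71 loss with Lin28a intact went in opposite directions in the 2 pairs of clones for all members but Ago3, among them Tnrc6a (-0.28 ± 0.100 and 0.17 ± 0.0827) and Tnrc6b (-0.19 ± 0.110 and 0.24 ± 0.0975). None of these was called, and the difference between the clones was not tested.

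**Figure D4:**
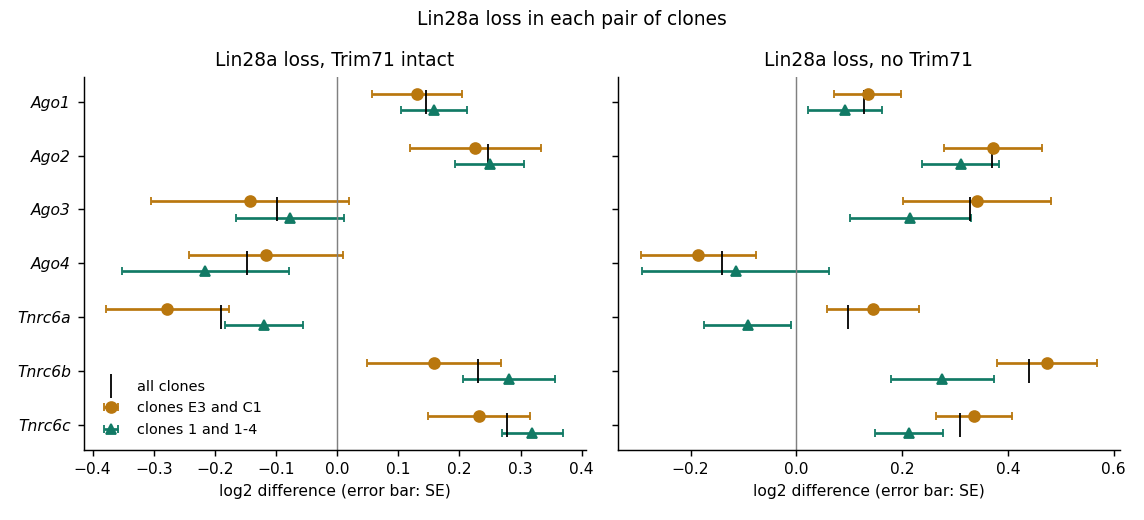
Log2 differences with Lin28a loss (horizontal axis, error bars SE) in clones E3 and C1 (circles), in clones 1 and 1-4 (triangles) and in all clones (ticks). Ago1, Ago2, Tnrc6b and Tnrc6c lie to the right of 0 in both pairs of clones and both panels, from 0.09 for Ago1 to 0.47 for Tnrc6b, and Tnrc6a changes side in the right panel.

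Promoter windows of RefSeq (GRCm38.p6, 300 bases around the annotated start, most of them upstream) were found for 6 of the 7 genes, with 2 starts each for Ago1 and Tnrc6b. Both strands were searched for 3 short motifs, each counted on its own even where letters of one overlap those of another. The CCAAT box was searched as CCAAT. The GC box was searched as GGGCGG. The TATA box was searched as TATAAA. For Tnrc6b, the gene with the largest difference, the window at 1 start held 4 CCAAT matches and that at the other start held none; which start the cells used was not measured. The former is shown with its matches in capitals, beside a window of Ago1 with 1 match (as in its other window) and that of Tnrc6c with none. At least 1 match was present in 37.4% of 32851 windows, and no other member had any. GC boxes numbered 5 in Ago3, 5 in Ago4, 2 in Ago1, 1 in the printed Tnrc6b window and none in its other window or in Tnrc6a and Tnrc6c, with 35.7% of windows holding at least 1. No window held TATAAA, which 13.6% of windows hold.
Tnrc6b chr15:80711063-80711362 (+ strand): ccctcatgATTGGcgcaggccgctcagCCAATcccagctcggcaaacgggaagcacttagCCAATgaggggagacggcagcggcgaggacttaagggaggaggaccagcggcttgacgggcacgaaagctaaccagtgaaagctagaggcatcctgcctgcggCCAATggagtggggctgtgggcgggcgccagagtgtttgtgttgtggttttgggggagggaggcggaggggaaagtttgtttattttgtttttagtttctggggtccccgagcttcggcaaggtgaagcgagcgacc
Ago1 chr4:126468582-126468881 (- strand): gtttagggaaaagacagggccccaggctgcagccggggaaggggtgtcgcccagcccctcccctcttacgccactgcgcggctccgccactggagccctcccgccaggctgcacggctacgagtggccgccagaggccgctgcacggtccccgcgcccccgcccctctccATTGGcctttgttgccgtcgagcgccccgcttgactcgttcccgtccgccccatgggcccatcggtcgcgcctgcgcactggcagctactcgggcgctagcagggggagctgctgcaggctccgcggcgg
Tnrc6c chr11:117654039-117654338 (+ strand): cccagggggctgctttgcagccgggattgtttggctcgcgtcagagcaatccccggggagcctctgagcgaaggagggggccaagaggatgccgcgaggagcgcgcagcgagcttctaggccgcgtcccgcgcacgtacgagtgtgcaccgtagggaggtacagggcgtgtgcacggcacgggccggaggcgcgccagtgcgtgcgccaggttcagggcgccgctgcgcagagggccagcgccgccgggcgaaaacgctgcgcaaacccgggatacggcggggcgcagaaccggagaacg

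Ago3, Ago1 and Ago4 lie next to each other on chromosome 4, and differences between the 3 were not tested. In Trim71-null cells, Lin28a loss gave 0.13 for Ago1 and 0.33 for Ago3, both called higher, and -0.14 for Ago4, not called. With Trim71 intact, Lin28a loss gave 0.15 for Ago1, which was called, and -0.10 for Ago3 and -0.15 for Ago4, which were not. The nearest tested genes outside the run, Tekt2 and Clspn, gave 0.10 and 0.01, neither called. Next to Ago2 on chromosome 15, Chrac1 gave 0.15 and Ptk2 -0.11, neither called (limma adjusted p = 0.0867 and 0.129). Chrac1 was called in 4 of 28 alternatives, and Ptk2 was called lower for loss of both genes (-0.19, adjusted p = 0.0111). Beside Tnrc6c on chromosome 11, Tmc6 was called higher (0.33; lost in the E3 and C1 clones taken alone, where the adjusted p was 0.119) and 2900041M22Rik lower (-0.27), the latter call being lost in 5 of 28 alternatives (-0.31 to -0.19), among them that without WT-WT replicate 1. Beside Tnrc6b on chromosome 15, Adsl, an enzyme of purine synthesis, was called higher (0.27; the call was lost in the E3 and C1 clones taken alone, where the adjusted p was 0.0694) and Fam83f (-0.22) was not called. Beside Tnrc6a on chromosome 7, Slc5a11 was called lower (-0.69) and Rbbp6 (-0.10) was not called.

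Profiles over the 18 libraries were compared by the root mean square difference after each gene's own mean had been subtracted. The nearest genes to Ago2 were Trrap (0.036 log2 units), C2cd3 (0.049) and Htt (0.053), and the closest members were Tnrc6c (0.055) and Tnrc6b (0.079), each farther than these 3. Tnrc6c was nearest to Krba1 (0.043), Zfp646 (0.043) and Ube3b (0.044), and Tnrc6b to Epg5 (0.051), Arhgap32 (0.052) and Med1 (0.054). Among the 3 genes nearest to Ago1 were Bag4 (0.038) and Crkl (0.039), and Ago3 was nearest to Luc7l2 (0.054), Ccser2 (0.061) and N4bp2 (0.062). Tnrc6a was nearest to AC158232.1 (0.051), Utp20 (0.051) and Brip1os (0.053), and Ago4 to Mex3c (0.074), Dusp19 (0.075) and Ppp3ca (0.079). The spread of Ago2 about its own mean was 0.18 and that of Ago4 0.13, so the match was closer for Ago2. Of the 20 nearest genes with an annotated length, 19 had a transcript longer than the median of tested genes and 11 were at least as long as Ago4.

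Among 27 effectors that TNRC6 proteins recruit, more were called higher than lower with Lin28a loss. Of these genes (deadenylase subunits, decapping factors, poly(A)-binding proteins and translational repressors), Lin28a loss raised 11 and lowered 2 with Trim71 intact, and raised 16 and lowered 1 without it, beside 20.3% and 20.8% of all genes called higher. Their median differences were 0.07 and 0.16, against -0.01 and -0.001 for all genes. In Trim71-null cells, 40.2% of genes with a transcript at least as long as that of Ago4 were called higher. This list and the others were counted without the correction for GC content and length. Dcp1b, a cofactor of the decapping enzyme, rose most (0.65 ± 0.0823 and 0.76 ± 0.0823, adjusted p = 1.36e-05 and 2.66e-06). Cnot8, a catalytic subunit of CCR4-NOT, fell (-0.26 ± 0.0402 and -0.24 ± 0.0402, adjusted p = 7.64e-05 and 0.000188). Trim71 loss raised none and lowered 3 with Lin28a (Xrn1, the 5′ to 3′ exonuclease, at -0.37, adjusted p = 0.0480) and 1 without it (Lsm14b, -0.20, adjusted p = 0.0218). Of all genes, 6.43% and 4.12% were called lower in these 2 comparisons. At an unadjusted p under 0.05, Trim71 loss put 0 of the 27 higher and 10 lower with Lin28a, beside 12.8% and 16.4% of all genes. Without Lin28a it put 1 higher and 2 lower, beside 10.7% and 12% of all genes. With Lin28a intact, differences after Trim71 loss moved with GC content across genes (rank correlation 0.515). The Xrn1 call was lost in 18 of 28 alternatives (-0.50 to -0.11, adjusted p up to 0.634), 12 of them with 1 library left out. The Lsm14b call was lost in 9 (-0.25 to -0.16, up to 0.291), among them those without WT-KO replicates 1, 3 or 4 or KO-KO replicates 1 or 3.

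Of 10 chaperones that load Argonaute, Lin28a loss raised 3 and lowered 3 with Trim71, beside 20.3% and 22.0% of all genes, and raised 2 and lowered 2 without it, beside 20.8% and 22.0%. These shares are near those of all genes. Hsp90aa1, the inducible HSP90, fell by 0.51 on the log2 scale with Trim71 intact (adjusted p = 0.000556), Hspa8 fell by 0.31 without Trim71 (adjusted p = 9.08e-05), and the co-chaperone gene Fkbp5 rose by 0.28 and 0.23. Trim71 loss with Lin28a raised none and lowered 2 of the 10, beside 6.43% of all genes, with Hsp90aa1 at -0.38 (adjusted p = 0.0295). Without Lin28a it called none in limma, with 4 at an unadjusted p under 0.05, all 4 lower, beside 12% of all genes lower. The Hsp90aa1 call with Trim71 loss was lost in 8 of 28 alternatives (-0.48 to -0.21, adjusted p up to 0.190), among them those without WT-WT replicates 3 or 4 or KO-WT replicates 2 or 3.

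Of 16 regulators and partners of Argonaute and TNRC6, Lin28a loss raised 4 and lowered 5 with Trim71 intact, and raised 4 and lowered 4 without it, near the shares of all genes (20.3% and 22.0%, and 20.8% and 22.0%). Mov10, an RNA helicase that associates with Argonaute, rose by 0.95 ± 0.0513 and 0.86 ± 0.0513 (adjusted p = 9.01e-10 and 3.84e-09), against at most 0.44 for any of the 7 genes. P4ha1, a subunit of the prolyl hydroxylase reported to modify AGO2, fell by 0.82 and 0.85. Trim71 loss raised Mov10 by 0.19 with Lin28a (adjusted p = 0.0411) and Zswim8, which is linked to Argonaute turnover, by 0.27 without it (adjusted p = 0.0458). These 2 calls were lost in 16 and 15 of 28 alternatives, with values of 0.07 to 0.25 (adjusted p up to 0.603) and 0.20 to 0.33 (up to 0.329), and 10 of the losses in each had 1 library left out.

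Of 16 microRNA processing genes, Lin28a loss raised 4 and lowered 2 with Trim71, and raised 5 and lowered 1 without it, the lowered genes including Lin28a itself. Of all genes, 20.3% and 20.8% were called higher and 22.0% lower in each. Adar, an RNA editing enzyme, rose most, by 0.39 and 0.40. Dicer1, which cuts precursor microRNAs and is itself a reported let-7 target, fell with Trim71 loss by 0.37 with Lin28a (adjusted p = 0.00282) and by 0.22 without it (adjusted p = 0.0217). The first call was lost in 2 of 28 alternatives (-0.41 to -0.26, adjusted p up to 0.136) and the second in 6 (-0.28 to -0.12, up to 0.261), among them those without KO-KO replicate 2, KO-KO replicate 4 or WT-KO replicate 4. Of the PIWI clade, 2 of 3 genes passed the filter, and Piwil4 rose with Lin28a loss by 0.42 and 0.43 (adjusted p = 0.00151 and 0.00126).

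**Figure D5:**
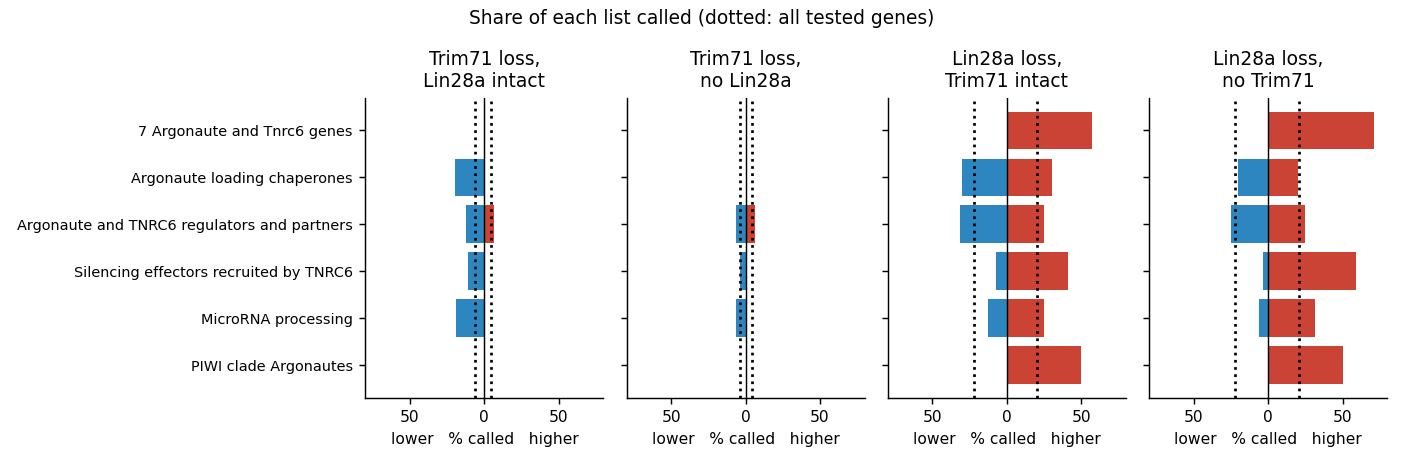
Share of the 7 genes and of each pathway list called higher (right, red) and lower (left, blue) in 4 comparisons; dotted lines mark the same shares over all tested genes. The 7 genes and the 27 effectors extend to the right with Lin28a loss, while the chaperones and regulators extend to both sides.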

How the data were processed

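Expression was measured in 19 libraries of 4 genotypes. The authors deposited 1 table of log2 normalised values for 21685 gene symbols; the scale was read from the values (-0.71 to 16.30), and a negative value cannot be a count. CASAVA 1.8, STAR and DESeq2 are named in the submitters' processing notes, with no role; genome build and annotation are not given in the sources used here. Day effects had already been removed (largest day term 8.18e-09), and KO-WT replicate 5, the single library of its day, lay within 1.5e-08 of its genotype's average over the remaining days; it was left out, and 18 libraries were analysed. Depth is unknown. No table column lay outside the labels.

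Genes with at least 10 normalised units in at least 4 libraries were tested in R 4.3.3 by limma 3.58.1, whose model held genotype means and harvest day (10 residual degrees of freedom, trended moderation of variances), and p-values were adjusted by Benjamini-Hochberg over 14988 genes; a gene is called at an adjusted p under 0.05. The pairing of libraries by day comes from the labels, and day serves as the replicate block; whether same-day libraries deviate together could not be checked once day effects had been removed. For the GC and length correction, each library's trend (splines, 4 degrees of freedom each) was removed. Transcripts came from GENCODE (GRCm38; 98.8% of tested genes matched by symbol). The method was tested on simulated data. Alternatives also covered scaling, filtering, clones, days, pairs of genotypes and each library left out.

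The 7 genes and the lists (Argonaute loading chaperones, regulators and partners, silencing effectors, microRNA processing, PIWI clade, and markers of stem cells, fibroblasts, primitive endoderm, trophectoderm and neural cells) were chosen with earlier results of these data known. Named besides the 7 were the 3 nearest profiles per gene, the nearest tested neighbours, and from each list the called gene with the largest difference per direction and comparison; 1 gene that this rule names is not reported here.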

Additional observations from a re-analysis of the deposited data

Results flagged for a closer look

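Ago1 in KO-WT had a library apart from the others. Replicate 1, of clone E3, stood at 9.49 while the other 3 stood between 9.59 and 9.61, and its gap to the nearest was 0.843 of the whole range, above the limit set for groups of 4 libraries. Such a gap is met by chance in about 5% of groups, and 28 groups were looked at. The same library was also lowest of its genotype for Ago2 (10.54), Tnrc6b (8.78) and Tnrc6c (9.52). Without it, the Ago1 difference for Lin28a loss in Trim71-null cells was 0.09 and was not called (adjusted p = 0.111 in limma).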

How the results depend on the processing

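Depth is unknown, so no counting error can be given, and differences of the size seen here rest on 4 or 5 libraries a genotype. No called value of a named gene changed sign under any of the 28 alternatives run; of 39 called values of other named genes, 26 kept the call in all of them and 13 lost it in at least 1. Without the replicate block (the day term), Trim71 loss with Lin28a called 1 of the 7 genes (Ago3, adjusted p = 0.0356) in place of 0, and loss of both called 5 in place of 3; that fit counts degrees of freedom which the removal of day effects had used up. Clones E3 and C1 alone called 0 of the 7 for Lin28a loss with Trim71 intact and 0 for loss of both, from 11 libraries; clones 1 and 1-4 alone, with 7, called 3 for each. For Lin28a loss without Trim71, clones E3 and C1 alone, the 3 days with all 4 genotypes, and the correction for GC content and length each called 3, and clones 1 and 1-4 alone called 1. Leaving out each library in turn gave 3 to 5 genes for Lin28a loss, without Trim71 and with Trim71 intact. For loss of both it gave 3 to 4. These counts take calls in either direction. Without WT-WT replicate 1 and with Trim71 intact, the calls of both Ago2 and Tnrc6b were lost. Those of Ago1 (0.13, adjusted p = 0.0491 in limma) and Tnrc6c were kept. Over all 14988 genes, Trim71 loss with Lin28a called 1674, but 4219 without the block, 10 from clones E3 and C1 and 344 from clones 1 and 1-4; without Lin28a it called 1256, 2618, 153 and 287; the interaction called 3, 673, 1 and 0. Lin28a loss called 2323 genes in clones E3 and C1 and 4373 in clones 1 and 1-4, against 6351, with Trim71 intact, and 3595 and 2293, against 6412, without Trim71. With trimmed mean scaling more genes were called higher than lower in place of fewer, for Lin28a loss without Trim71 (3563 and 2874, against 3120 and 3292) and for loss of both (3780 and 3036, against 3143 and 3691).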
